A study of Mus musculus with 12 samples.

Results

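H19, Meg3 and Rasgrf1 are 3 mouse genes whose imprinting is marked by DNA methylation on the copy inherited from the father. Their methylation was described here in 4 windows of the mouse genome build mm9. The H19 window (chr7:149761000-149768500) covers the gene, its promoter and its upstream control region. The Dlk1-Meg3 intergenic window (chr12:110765000-110770000) and the Meg3 promoter window (chr12:110778000-110782000) lie in 1 imprinted domain, and the Rasgrf1 window (chr9:89768000-89782000) lies beside that gene. The members are the cytosines in these windows that reached 20% methylation in any of the 12 libraries, 93 of 321 listed there. They comprise 28 of 93 in the H19 window, 8 of 36 in the intergenic window, 37 of 113 in the Meg3 promoter window and 20 of 79 in the Rasgrf1 window. In the whole file 1710224 of 8119606 positions reached that level. The rule reads the level itself, so the number of members is no finding. The members just inside it peaked at 25% (H19), 43.8% (intergenic), 20% (Meg3 promoter) and 20.7% (Rasgrf1), and the cytosines just outside it at 19.55%, 5.56%, 14.8% and 18.2%.

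The assay was reduced representation bisulfite sequencing, which samples CpG-rich genome fragments cut by the enzyme MspI. Each of the 12 groups is 1 library, so no value has a replicate error. The stem cells, all wild type, were diploid embryonic stem cells (ESCs), androgenetic haploid ESCs (ahESCs, whose genome is paternal) and parthenogenetic haploid ESCs (phESCs, whose genome is maternal), each taken at an early and a late passage. The E15.5 libraries (E for embryonic day) came from whole embryos that were wild type (WT, from a normal sperm and oocyte), bimaternal (BM, from a phESC placed in an oocyte) or bipaternal (BP, from an ahESC and a sperm placed in an oocyte without its nucleus). Brain libraries came from a BM fetus at E19.5, a BM adult and a WT adult. All BM and BP samples are labelled DMR-KO, meaning that differentially methylated regions were deleted, without saying which. From knowledge of the study, and not from these labels, its bimaternal mice were made with phESCs lacking control regions of H19, Dlk1-Meg3 and Rasgrf1. A BM value inside a deleted region would come from the oocyte's copy alone, and such cytosines could not be marked. Whether a library pools animals, the age of the adults and the number of passages are not given in the sources used here. No transcript was measured, so tissue labels could not be checked against marker genes.

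The libraries held values at 3773871 positions (BP embryo) to 5903648 positions (WT adult brain), and the number of reads behind each value is unknown. Late ahESCs, late phESCs, the WT adult brain and the BM adult brain form a second library set, the only libraries with any value on chromosome Y sequence that has no assigned place (2209 to 7697 positions). On chromosome Y itself the early ahESCs, early phESCs, BM embryo and BM E19.5 brain had values at 22 to 106 positions. Late ahESCs had 1161, late phESCs 654 and the BM adult brain 890, although cells of their labels should hold no Y chromosome. Libraries of the first set that can hold one (both diploid ESC libraries, the WT embryo and the BP embryo) had 1185 to 1587, and the WT adult brain 2246. The late haploid and BM adult libraries therefore stand apart from the early libraries of their own label, and this limit holds for every comparison that uses them. Of the 93 members, 17 have values only in the second set, 31 have values in at least 10 libraries and 10 in all 12.

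A copy of an imprinted gene is active or silent according to the parent that passed it on. At H19, methylation laid down in sperm covers a control region upstream of the gene. On the unmethylated maternal copy the insulator protein CTCF binds there, H19 (a noncoding RNA) is transcribed, and the growth factor gene Igf2 is cut off from shared enhancers. The H19 promoter becomes methylated on the paternal copy only after fertilization. The Dlk1-Meg3 domain follows the same plan, with an intergenic control region methylated in sperm and the promoter of the noncoding RNA Meg3 methylated later on the same copy. Rasgrf1, a guanine nucleotide exchange factor for Ras that is expressed from the paternal copy in the newborn brain, has a sperm-methylated region upstream. A normal diploid cell carries 1 methylated and 1 unmethylated copy and should measure near the middle of the scale.

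The sequence around the start of Meg3 is shown because the BM, BP and WT embryos stand apart within it. It is the RefSeq promoter (250 bases before to 50 after the start, from the GRCm38.p6 table), on the plus strand at chr12:110778956-110779255 of mm9. Its place on mm9 was found from the pattern of listed cytosines, of which 54 matched it, against 5 at the next best place. It holds 13 CpGs, and capitals mark the 7 where a cytosine reached 20%. The other sequence is part of the last exon of H19 (GENCODE M21, minus strand, chr7:149761680-149761938 of mm9). The exon was placed by 19 listed cytosines against 4. All 5 CpGs of the sequence are in capitals, and it is shown because methylation inside the gene departed from that of its promoter.
Meg3 promoter: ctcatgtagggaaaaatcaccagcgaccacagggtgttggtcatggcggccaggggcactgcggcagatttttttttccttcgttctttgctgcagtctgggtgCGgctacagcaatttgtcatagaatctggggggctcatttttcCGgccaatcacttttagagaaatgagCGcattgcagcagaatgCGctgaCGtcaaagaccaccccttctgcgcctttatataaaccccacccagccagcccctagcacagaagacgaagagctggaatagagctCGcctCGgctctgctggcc
H19 last exon stretch: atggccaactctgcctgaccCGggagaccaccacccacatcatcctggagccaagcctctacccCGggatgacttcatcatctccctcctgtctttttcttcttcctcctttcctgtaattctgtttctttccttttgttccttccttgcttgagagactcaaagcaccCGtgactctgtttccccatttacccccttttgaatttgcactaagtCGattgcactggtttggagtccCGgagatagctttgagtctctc
The motif TGACGTCA, the cAMP response element, reads the same on both strands and was searched because it holds a CpG. It occurs once in the Meg3 promoter, 57 bp before the start, and in 588 of 32851 RefSeq promoters of that length (1.79%). Its CpG had values in 3 libraries, 20% in the WT adult brain, 5.26% in late phESCs and 0% in the BM adult brain.

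Over the H19 window, the mean methylation of the members was 58.7% in early and 13.7% in late diploid ESCs. It was 36.9% in early and 19.2% in late ahESCs, and 20.8% in early and 11.2% in late phESCs. The embryos measured 56.2% (WT), 24.8% (BM) and 77.5% (BP), and the brains 31.6% (BM E19.5), 45% (WT adult) and 37.2% (BM adult). The BP embryo was highest and late phESCs lowest, and those phESCs rest on 7 cytosines against 14 to 26 elsewhere.

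Over the Meg3 promoter window, the means were 51.2% in early and 3.93% in late diploid ESCs, 44.1% in early and 9.77% in late ahESCs, and 2.82% in early phESCs. The embryos measured 35.5% (WT), 60.6% (BM) and 76.3% (BP), and the brains 54.4% (BM E19.5), 25.5% (WT adult) and 19.7% (BM adult). Late phESCs had 4 cytosines with a value, at 2.50% to 9.17%, under the minimum of 5 set for a mean. The 2 BM libraries of the first set were above the WT embryo here, in contrast to the H19 window.

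Over the Rasgrf1 window, the means were 77.3% in early and 19.9% in late diploid ESCs, 65.2% in early and 26.2% in late ahESCs, and 37.7% in early phESCs. The embryos measured 46.4% (WT), 18.0% (BM) and 47.6% (BP), and the brains 24.9% (BM E19.5), 34.0% (WT adult) and 28.2% (BM adult). Late phESCs had 2 cytosines, at 17.4% and 27.5%. Early diploid ESCs were above every embryo and brain library, and the BM embryo was the lowest library of all those with a mean.

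**Figure D1:**
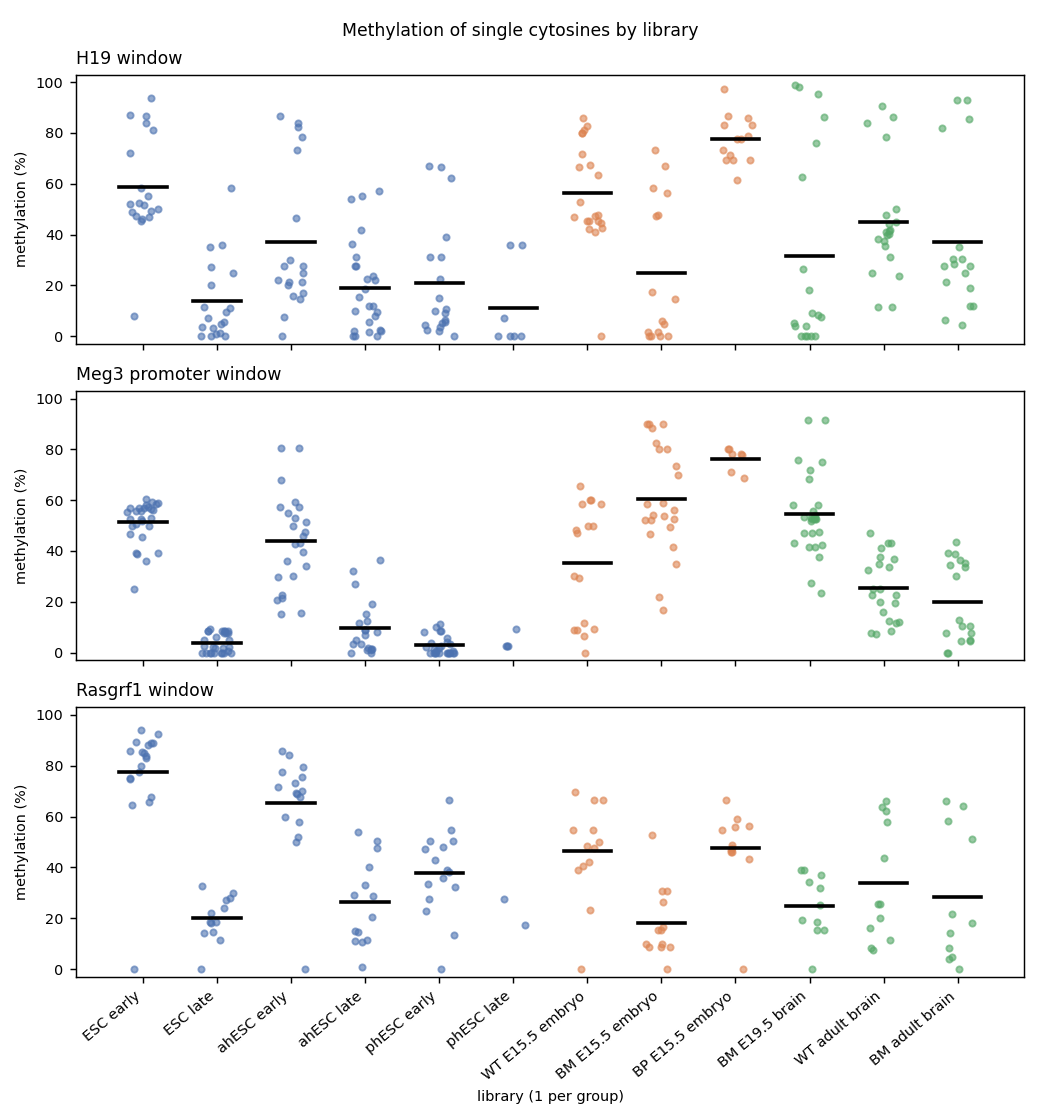
Methylation in percent (vertical axis) of each member cytosine in each of the 12 libraries (horizontal axis) for the H19, Meg3 promoter and Rasgrf1 windows. Points are cytosines, black bars are means over at least 5 cytosines. The BM embryo lies below the WT embryo at H19 (24.8% and 56.2%) and Rasgrf1 (18.0% and 46.4%) and above it at the Meg3 promoter (60.6% and 35.5%).

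The spread of points within the H19 window was wide, from 0% to 99.0% in the BM E19.5 brain, because its members fall into 4 stretches with different levels. The stretches were drawn after the positions were seen, by joining cytosines no more than 400 bp apart. From the gene outward they are the last exon (chr7:149761700-149761918), a promoter stretch 9 to 100 bp upstream of the start (chr7:149764057-149764148), a middle stretch 625 to 833 bp upstream, and a far stretch 2999 to 3244 bp upstream (chr7:149767047-149767292), on the side of the control region. The start, at 149764048 on the minus strand, was inferred from the placed last exon and assumes that the gene is laid out in mm9 as in GENCODE M21.

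At the H19 promoter stretch, the 10 cytosines of the WT embryo lay between 40.9% and 47.7%, with a mean of 44.8%. The 8 cytosines of the BM embryo lay between 0% and 6.04% (mean 1.74%). The 8 of the BP embryo lay between 69.4% and 78.9% (mean 73.4%). The 3 embryos did not overlap at any cytosine of this stretch. At the 8 cytosines they share, the BM embryo differed from the WT embryo by -42.95 points and the BP embryo by 28.7 points. The adjacent cytosines 48 and 49 bp upstream, measured in all 12 libraries, show the same order: they read 44.6% and 42.2% in the WT embryo, 0% and 0% in the BM embryo, and 69.4% and 77.5% in the BP embryo.

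In the brains, the same 8 cytosines of the BM E19.5 brain lay between 0% and 7.69% (mean 2.60%), overlapping the BM embryo. The 9 of the WT adult brain lay between 11.7% and 47.8% (mean 37.0%). The 9 of the BM adult brain lay between 4.46% and 30.5% (mean 21%) and were lower than the WT adult brain at 9 of 9 shared cytosines (difference -16.02 points). Against the BM E19.5 brain, the BM adult brain was higher at 8 of 8 shared cytosines (23.1% and 2.60%). That comparison crosses the library sets, and the 890 chromosome Y positions of the BM adult brain against 106 at E19.5 stand beside it; their part in the difference was not tested.

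In stem cells, the H19 promoter stretch measured 45.2% to 58.4% in early diploid ESCs (mean 50.5%, 8 cytosines). Late diploid ESCs measured 0.89% to 11.6% (mean 5.89%), with no overlap. Of all tiles, 74.3% were lower in late than in early diploid ESCs by 25 points or more. Early ahESCs lay between 14.6% and 30.0% (mean 22.8%), below early diploid ESCs at 8 of 8 cytosines (difference -27.7 points). Early phESCs lay between 4.55% and 22.4% (mean 9.21%) and late phESCs between 0% and 7.14% (mean 1.43%, 5 cytosines). An ahESC genome is paternal, and this level was below that of diploid cells, which carry a single paternal copy. Late ahESCs measured 9.43% over 9 cytosines.

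**Figure D2:**
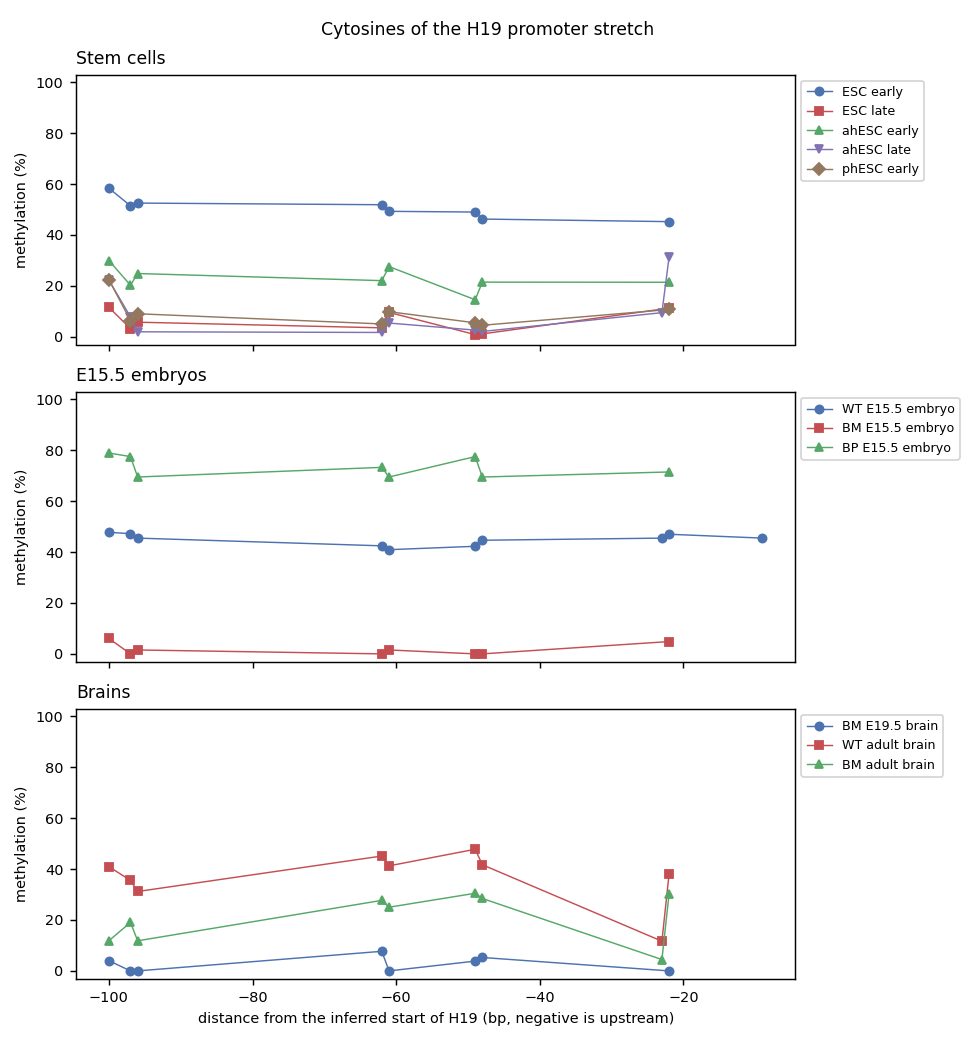
Methylation in percent (vertical axis) of the H19 promoter cytosines against their distance from the inferred start in bp (horizontal axis), in stem cells, embryos and brains. There is 1 line per library, and late phESCs are not drawn. The lines of the BP (mean 73.4%), WT (44.8%) and BM (1.74%) embryos do not cross, and the BM adult brain (21%) lies between the BM E19.5 brain (2.60%) and the WT adult brain (37.0%).

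At the far upstream stretch of H19, the WT embryo measured 52.8% to 82.7% (mean 68.6%, 4 cytosines), the BM embryo 14.5% to 58.5% (mean 34.5%) and the BP embryo 61.5% to 85.7% (mean 78.5%). The BM embryo was lower than the WT embryo at 4 of 4 cytosines, and its range overlapped that of the WT embryo. The BM E19.5 brain measured 13.3%, lower than the BM embryo at 4 of 4. Early diploid ESCs measured 49.9%, late ones 2.95%, early ahESCs 17.0% and early phESCs 5.83%. Early ahESCs were thus low at the promoter and at the far stretch alike, with a difference of -32.9 points from early diploid ESCs at the latter. The adult brains have values at 4 (WT, mean 33.9%) and 3 (BM, mean 18.5%) cytosines there, of which 1 is shared with the embryos.

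The middle stretch and the last exon of H19 were methylated in libraries whose promoter was near 0. Of the exonic CpG at 149761722, measured in all 12 libraries, the BM embryo had 67.2%, the BM E19.5 brain 98.1% and the BM adult brain 92.9%. The same cytosine read 81.2% in the WT embryo, 86.8% in the BP embryo and 90.7% in the WT adult brain. In stem cells it read 81.1% in early and 25% in late diploid ESCs, 78.6% in early and 27.8% in late ahESCs, and 39.1% in early and 35.7% in late phESCs. Across embryos and brains it thus ran from 67.2% to 98.1%, in contrast to the promoter of the same gene. Other exon cytosines were less even in the adult brains. The stretch ran from 23.8% to 90.7% in the WT adult brain (mean 59.4%, 8 cytosines). In the BM adult brain it ran from 35.1% to 92.9% (mean 77.7%, 5 cytosines). The adjacent positions 149761873 and 149761874 read 78.2% and 23.8% in the WT adult brain, and 82.0% and 35.1% in the BM adult brain. At the 2 cytosines of the middle stretch the BM embryo measured 52.2% and the BM E19.5 brain 69.2%, beside 65.2% in the WT embryo, 90.1% in early diploid ESCs and 84.6% in early ahESCs. A cytosine of the exon stretch that is not a CpG (149761717) became a member through the WT adult brain alone, at 25%, and read 0% to 9.09% in 7 other libraries.

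**Figure D3:**
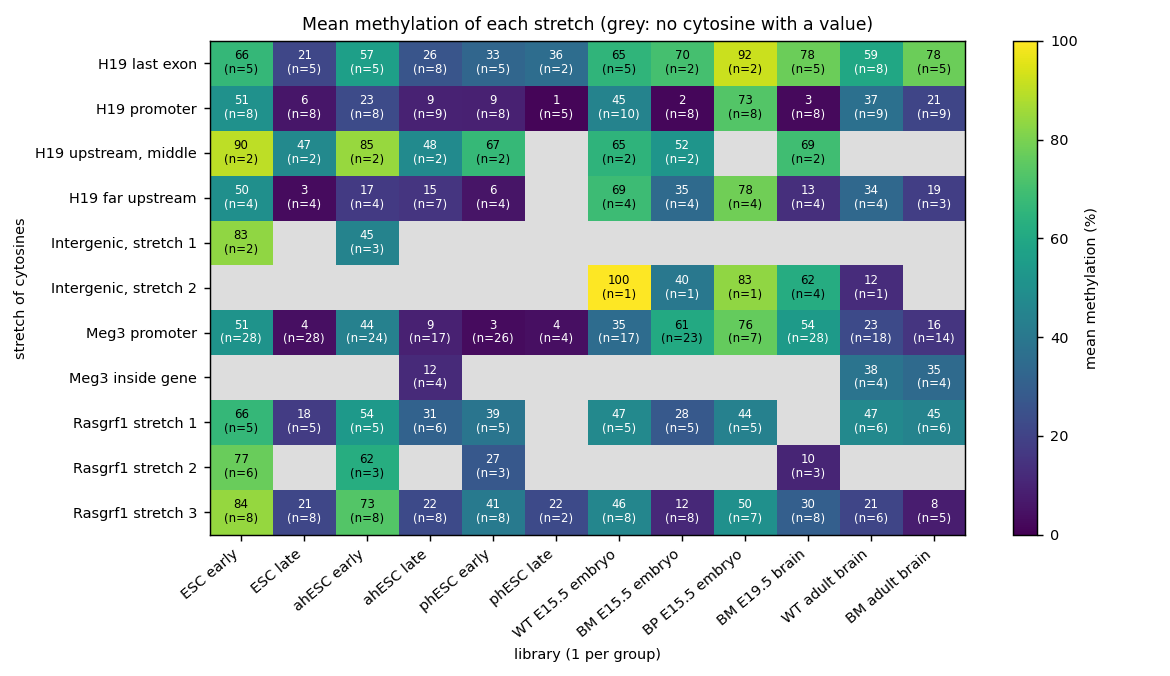
Mean methylation in percent (colour and number) of each stretch of member cytosines (rows) in each library (columns), with the number of cytosines; grey cells have no value. In the BM embryo the H19 last exon (70.3%) stands against the H19 promoter (1.74%), and the intergenic rows are mostly grey.

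The Meg3 promoter window holds a long stretch of 33 members from 943 bp before to 320 bp after the start of Meg3 (inferred at 110779206), and 4 members inside the gene, 781 to 817 bp after the start, that only the second library set measured. Within the 300 bases printed above, the members of early diploid ESCs lay between 50% and 60.6% (mean 55.7%, 12 cytosines). Late diploid ESCs lay between 0% and 8.33% (mean 4.58%). Early phESCs lay between 0% and 8.70% (mean 1.64%), overlapping late diploid ESCs and far from early ones. Early ahESCs lay between 21.4% and 80.6% (mean 52.8%, 11 cytosines), around the level of early diploid ESCs, and late ahESCs between 0% and 19% (mean 3.37%, 10 cytosines).

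In the embryos, the same 300 bases measured 0% to 30.0% in the WT embryo (mean 10.6%, 6 cytosines), 46.6% to 90% in the BM embryo (mean 71.2%, 11 cytosines) and 71.1% to 80.0% in the BP embryo (mean 77.5%, 6 cytosines). The WT embryo did not overlap the BM or the BP embryo. Of all tiles, 1.17% were higher by 25 points or more in BM than in WT, and 1.11% in BP than in WT. The CpGs 76 and 59 bp before the start are measured in all 12 libraries. They read 6.45% and 9.38% in the WT embryo, 56.2% and 46.6% in the BM embryo, and 78.0% at both in the BP embryo. Outside the printed bases the WT embryo was mostly higher. It read 60% at both cytosines measured 699 to 721 bp before the start, and 29.4% to 65.5% at 301 to 320 bp after it. At 74, 75, 79 and 80 bp after the start the WT embryo read 50%, 11.8%, 50% and 58.6%. There the BM embryo read 52.2%, 49.3%, 34.8% and 16.7%, below the WT embryo at 79 and 80 bp.

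The difference between BM and WT at Meg3 thus changed along the window. In the 500 bp bin from 1000 to 1500 bp of the window, which holds the start, the BM embryo averaged 51.6% and the WT embryo 23.4% over 10 shared cytosines, higher in BM at 8 of 10. In the next bin, 1500 to 2000 bp, the BM embryo averaged 45.6% and the WT embryo 49.8% over 5 shared cytosines, higher in BM at 1 of 5. Over all 17 shared cytosines the BM embryo was 18.3 points higher, and over each library's own cytosines 25.1 points higher. The BP embryo shares 5 cytosines with the WT embryo, all between 76 bp before and 75 bp after the start, where it measured 74.8% against 9.05%.

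In the brains, the 300 bases around the Meg3 start measured 41.7% to 91.7% in the BM E19.5 brain (mean 54.2%, 12 cytosines), 7.14% to 25% in the WT adult brain (mean 16.9%, 11 cytosines) and 0% to 13% in the BM adult brain (mean 7.33%, 8 cytosines). The E19.5 brain did not overlap either adult brain. Of all tiles, 11.0% were lower by 25 points or more in the BM adult brain than in the BM E19.5 brain. At 10 shared cytosines of the window the BM adult brain averaged 6.35% and the BM E19.5 brain 54.1%, lower at 10 of 10. The gap crosses the library sets, and no WT brain at E19.5 or BM embryo of the second set allows a comparison within a set. It also depends on the positions that each set read. At cytosines 351 to 405 bp before the start that only the second set read, the BM adult brain had 34.5% to 43.6%. The shared cytosine 352 bp before the start read 4.87% in the BM adult brain and 91.7% at E19.5. The adjacent one, at 351 bp, read 39.1% in the BM adult brain and had no value at E19.5. Inside the gene, the 4 further cytosines measured 38.5% in the WT adult brain, 34.5% in the BM adult brain and 12% in late ahESCs.

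**Figure D4:**
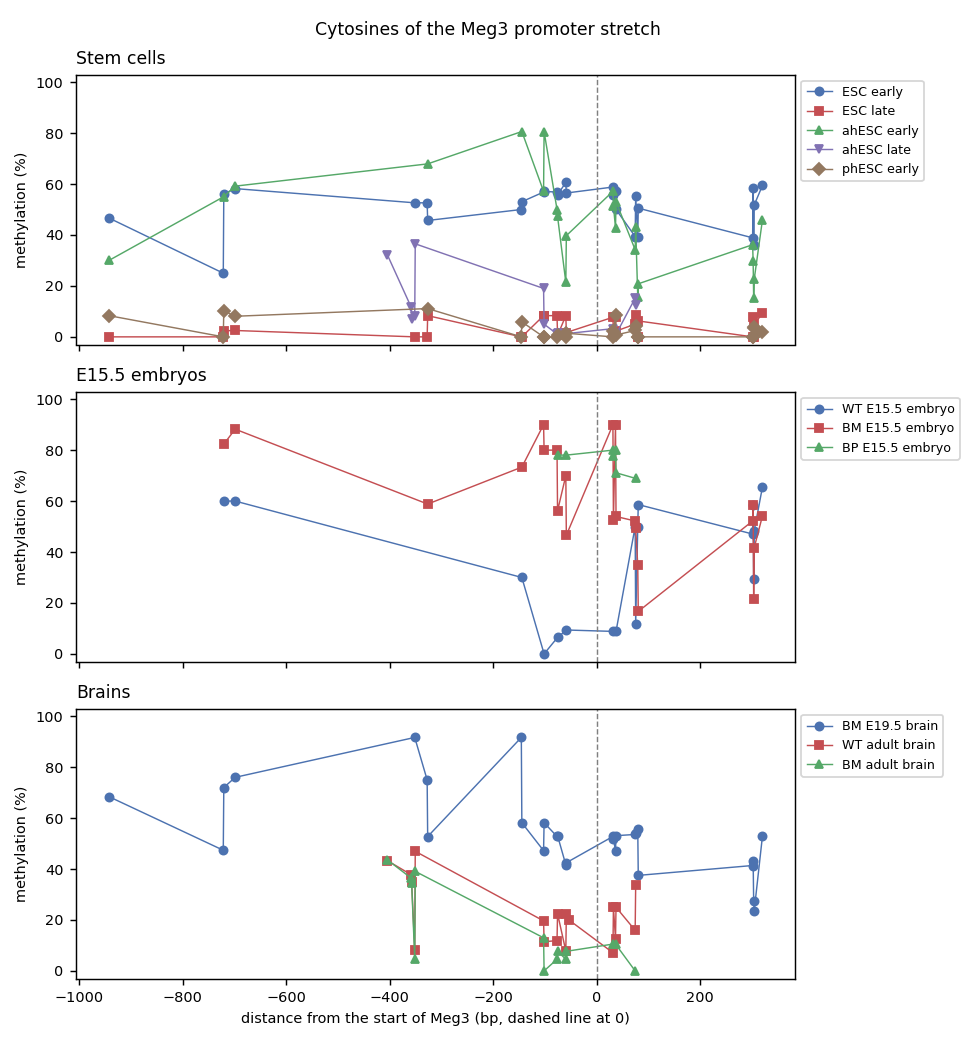
Methylation in percent (vertical axis) of the Meg3 promoter cytosines against their distance from the start of Meg3 in bp (horizontal axis, dashed line at the start), in stem cells, embryos and brains. There is 1 line per library, and late phESCs are not drawn. Near the start the WT embryo (mean 10.6% over the printed 300 bases) lies below the BM (71.2%) and BP (77.5%) embryos, and the adult brains lie below the BM E19.5 brain (54.2%).

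The intergenic control region of the Dlk1-Meg3 domain was nearly unread. No library had 5 of its 8 members, so no mean was formed. The BM E19.5 brain had 4 (44.4% to 94.7%), early ahESCs 3 (40% to 50%) and early diploid ESCs 2 (both 83.3%). The cytosine at 110767742 read 100% in the WT embryo, 40% in the BM embryo, 83.3% in the BP embryo and 44.4% in the BM E19.5 brain. The WT adult brain had 1 other cytosine, at 12.5%, and 5 libraries had none. Just before the window, 4 cytosines that are not members (chr12:110763922-110764002) were read in 11 libraries. They averaged 55.1% in early and 5.35% in late diploid ESCs, 67.5% in early ahESCs and 4.68% in early phESCs. The WT embryo averaged 52.1%, the BM embryo 48.7%, the BP embryo 67.9%, the WT adult brain 55.2% and the BM adult brain 53.0%. At this edge the 4 WT and BM libraries with values lay between 48.7% and 55.2%, while at the Meg3 promoter they ran from 19.7% to 60.6%. A group of 8 cytosines nearer the window (chr12:110764888-110764947) was read only in late ahESCs (9.57%), the WT adult brain (85.2%) and the BM adult brain (79.1%).

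The Rasgrf1 members form 3 stretches, at chr9:89769450-89769530, chr9:89772915-89773153 and chr9:89780620-89780919. The third is the best measured, with 8 cytosines. There the WT embryo lay between 23.3% and 66.7% (mean 46.1%), the BM embryo between 8.51% and 16.7% (mean 11.7%) and the BP embryo between 43.5% and 59.1% (mean 50.3%, 7 cytosines). The BM embryo did not overlap either of the others and was lower than the WT embryo at 8 of 8 cytosines. Of all tiles, 0.0689% were lower by 25 points or more in BM than in WT, and 0.204% in BM than in BP. The BM E19.5 brain lay between 18.5% and 38.8% (mean 30.4%), above the BM embryo at 8 of 8, while the WT adult brain averaged 20.8% and the BM adult brain 8.15%. The BM adult brain was below the WT adult brain at 5 of 5 shared cytosines (difference -12.8 points). Both adult brains belong to the second library set, and the E19.5 brain and the embryos to the first.

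In stem cells the third Rasgrf1 stretch measured 65.6% to 92.6% in early diploid ESCs (mean 84.1%), 67.5% to 84.3% in early ahESCs (mean 73.4%) and 22.8% to 66.4% in early phESCs (mean 40.7%). Late diploid ESCs averaged 21.3%, late ahESCs 22.4% and late phESCs 22.4% over 2 cytosines. Early diploid ESCs, with 1 maternal and 1 paternal copy, were nearer to the paternal ahESCs than to the maternal phESCs at this stretch. The first stretch differed from the third in the adult brains, with 47.2% (WT) and 44.9% (BM), beside 47.0% in the WT embryo, 28.1% in the BM embryo and 43.8% in the BP embryo. In the first stretch, the cytosine at 89769471 became a member through the WT and BM adult brains alone, at 25.7% and 21.5%. It read 0% to 0.746% in 8 other libraries, so the 20% rule itself fixed that contrast. Whether it is a CpG is not known, and it is counted in the means of the first stretch. The middle stretch was read in 4 libraries, at 77.3% in early diploid ESCs, 62.5% in early ahESCs, 27.5% in early phESCs and 10.3% in the BM E19.5 brain.

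The windows were then compared between libraries, over each library's own cytosines and beside all 5 kb tiles of the genome under the same rule. A difference of 25 points with at least 5 cytosines in each library counted as a call, without a test. With 3 windows measured, each count is read against the share of tiles called in the same direction. The 20 calls in all hold for cytosines that reached 20%, and none of them remained when every listed cytosine was averaged. From early to late passage, diploid ESCs were lower at 3 of 3 windows, with differences of -45.03 points (H19), -47.3 points (Meg3 promoter) and -57.4 points (Rasgrf1). Of all tiles 74.3% were lower by that much, so the windows were lower along with most of the genome. Late ahESCs were lower than early ones at the Meg3 promoter (-34.3 points) and Rasgrf1 (-39.0 points) and by less than 25 points at H19 (-17.8 points), against 60.9% of tiles. In phESCs only H19 could be compared (-9.55 points, or -5.06 points over the 6 shared cytosines), and 6.45% of tiles were called lower. H19 was lower at late passage in 3 of 3 cell types, with a mean difference of -24.1 points (SD 18.6, n = 3 cell types). The two-sided exact sign-flip permutation test gave p = 0.25, the smallest value that 3 pairs allow. For ahESCs and phESCs the passage and the library set cannot be told apart.

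At early passage, phESCs were lower than diploid ESCs at 3 of 3 windows, with differences of -38.0 points (H19), -48.4 points (Meg3 promoter) and -39.7 points (Rasgrf1), where 51.8% of tiles were lower and the median tile differed by -25.5 points. Against ahESCs they were lower at the Meg3 promoter (-41.2 points) and Rasgrf1 (-27.6 points) and not called at H19 (-16.2 points), with 44.0% of tiles lower. Early ahESCs and diploid ESCs differed by -21.8 points at H19, -7.20 points at the Meg3 promoter and -12.1 points at Rasgrf1, none of them called, where 0.368% of tiles were lower. The median tile differed by -1.68 points. H19 and Rasgrf1 lay below the 5th percentile of the tiles (-10.1 points), and the Meg3 promoter above it. These comparisons share libraries.

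Among the embryos, tiles seldom differed. BM was lower than WT at H19 (-31.4 points) and Rasgrf1 (-28.4 points), 2 of 3 windows, where 0.0689% of tiles were lower. BM was higher than WT at the Meg3 promoter (25.1 points), 1 of 3 windows, where 1.17% of tiles were higher. That mean takes in cytosines read in only the BM library, and over shared cytosines the difference was 18.3 points. BP was higher than WT at the Meg3 promoter (40.8 points), 1 of 3 windows, against 1.11% of tiles (65.7 points over 5 shared cytosines), and differed by 21.3 points at H19 and 1.19 points at Rasgrf1. BM was lower than BP at H19 (-52.7 points) and Rasgrf1 (-29.6 points), 2 of 3 windows, against 0.204% of tiles, and differed by -15.7 points at the Meg3 promoter, not called. These 3 comparisons share the same 3 libraries.

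In adult brain, BM and WT differed by -7.74 points (H19), -5.73 points (Meg3 promoter) and -5.82 points (Rasgrf1), 0 of 3 called, where 0.22% of tiles were lower. From E19.5 to adult, the BM brain was lower at the Meg3 promoter (-34.6 points), 1 of 3 windows, where 11.0% of tiles were lower; H19 differed by 5.64 points. Rasgrf1 differed by 3.25 points over each library's own cytosines and by -22.2 points over the 5 shared ones, lower in the adult at 5 of 5. The E19.5 brain has no value in the first Rasgrf1 stretch (44.9% in the BM adult brain). The BM adult brain has none in the middle stretch (10.3% at E19.5). The BM E19.5 brain differed from the BM embryo by 6.79, -6.19 and 6.96 points at H19, the Meg3 promoter and Rasgrf1, 0 of 3 called, with 3.03% of tiles higher. Over shared cytosines these differences were 0.779, -10.6 and 18.8 points. The WT adult brain differed from the WT embryo by -11.2, -9.99 and -12.4 points in the same order, 0 of 3 called, with 3.43% of tiles lower. At the Meg3 promoter the direction turned over the 7 shared cytosines, where the WT adult brain was 8.70 points higher, at 6 of 7. Comparisons of an adult brain with the E19.5 brain or an embryo cross the library sets, and the part of the sets was not tested.

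The embryos were also set beside the stem cells of the kind they were made from. The BM embryo was higher than early phESCs at the Meg3 promoter (57.7 points), 1 of 3 windows, where 64.9% of tiles were higher and the median tile differed by 31.7 points. H19 differed by 4.04 points and Rasgrf1 by -19.7 points, H19 below the 25th percentile of the tiles (19.2 points) and Rasgrf1 below the 5th (-0.685 points). The BP embryo was higher than early ahESCs at H19 (40.5 points) and the Meg3 promoter (32.2 points), 2 of 3 windows, where 14.8% of tiles were higher, and Rasgrf1 differed by -17.6 points. The phESCs and ahESCs here are wild type, while the embryos carry the deletions.

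**Figure D5:**
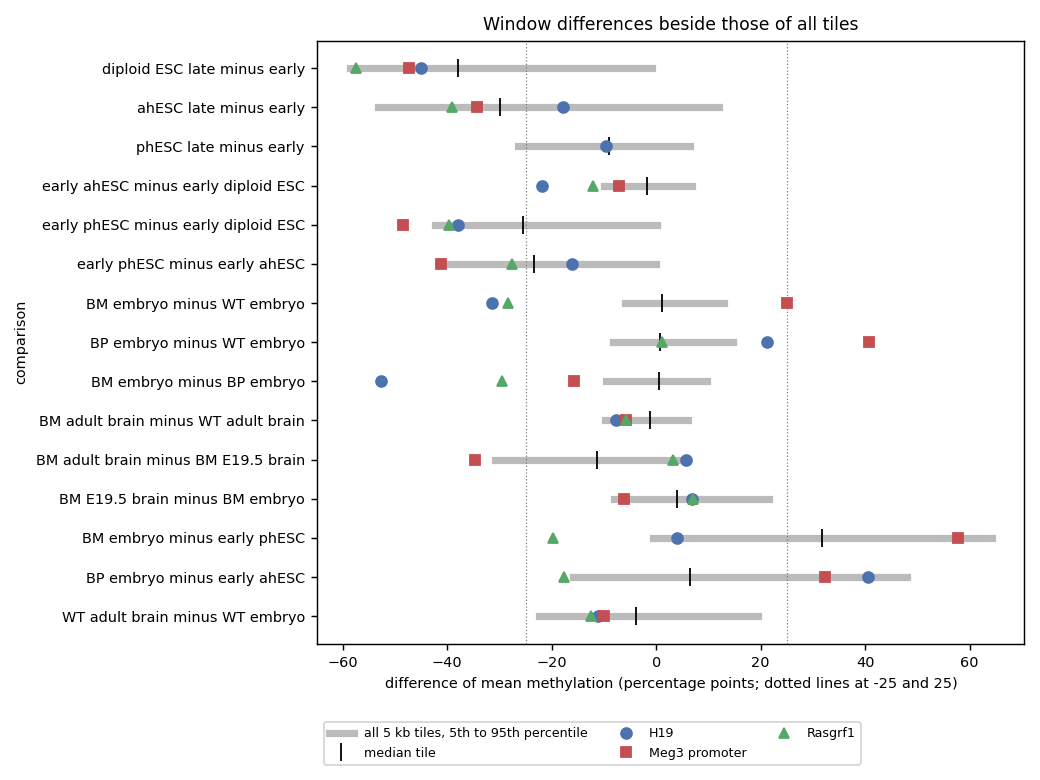
Difference of mean methylation in percentage points (horizontal axis) for each comparison (vertical axis) at the H19, Meg3 promoter and Rasgrf1 windows (symbols), with the range of all 5 kb tiles from the 5th to the 95th percentile (grey) and their median (black tick). In diploid ESC passage the windows lie within the range of the tiles, and in BM against WT embryos (-31.4, 25.1 and -28.4 points) they lie outside it.

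For other imprinted genes, a list of 33 was used, of which 25 were in the promoter table and 12 could be placed on mm9 by their listed cytosines. Of these, 7 windows at promoters of genes listed with maternally methylated regions were measured in at least 10 libraries. So were 2 neighbours of the members (Igf2 and Dio3) and Zdbf2. Each window was taken as the cytosines at 20% or more in any library within 1000 bp of a placed promoter. Such a promoter need not carry the maternal mark itself, and the Airn promoter, listed with Igf2r, was not placed. In the BP embryo 4 of these 7 windows were lower than in the WT embryo by 25 points or more and none was higher (median -57.6 points). Of all tiles 0.236% were lower. The 4 are Snrpn (1.2% against 65.7%), Plagl1 (1.0% against 58.6%), Zrsr1 (1.7% against 66.0%) and Mcts2 (1.5% against 70.2%), opposite in direction to H19 and the Meg3 promoter. Igf2r (41.0% against 44.0%), Gnas (50.2% against 38.7%) and Grb10 (20.1% against 9.87%) were not called. Between the BM and WT embryos 0 of 7 were called (median -5.0 points), where 0.0689% of tiles were lower and 1.17% higher. In diploid ESC passage 3 of 7 were lower (median -14.6 points), where 74.3% of tiles were lower and the median tile differed by -38.0 points. Zdbf2, a zinc finger gene of another domain imprinted by methylation of the paternal copy, averaged 6.0% to 21.2% in 11 libraries with 0 of its comparisons called. Its 6 cytosines averaged 8.52% in the WT embryo and 6.35% in early diploid ESCs, far from the middle of the scale. Whether they lie in the methylated region was not tested, and the Gpr1 promoter of that domain was not placed. Igf2, the growth factor gene beside H19, averaged 2.4% to 17.1% over the 12 libraries, and 0 of its 15 comparisons were called. Dio3, the deiodinase gene at the far end of the Meg3 domain, averaged 5.1% to 23.6% in 11 libraries.

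Across 11 libraries, the means of H19 went most closely with those of the Meg3 promoter (Pearson r = 0.67), then Rasgrf1 (0.62) and, over 12 libraries, Igf2r (0.57). The Meg3 promoter went most closely with H19 (0.67), Igf2r (0.57) and Grb10 (0.50), and Rasgrf1 with H19 (0.62), Grb10 (0.39) and the Meg3 promoter (0.34). The Zdbf2 promoter window, with means of only 6.0% to 21.2%, gave -0.31, -0.31 and -0.34 with the 3 windows. The means of the Grb10 window, over 10 cytosines, ran in a like range, from 5.61% to 21.2%. The points share libraries and the loss of methylation at late passage, so the coefficients are a description only.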

How the data were processed

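The members and gene lists were chosen with earlier results of these data known. The authors' deposited table gives a methylation percent (0 to 100) per cytosine, made per the submitters' processing notes with Trim Galore and Bismark 0.13.1 on mm9; it holds no coverage, so no interval or minimum depth could be applied, and a cytosine with no value in a library was left out of its mean. The table lists cytosines of CG and GC without saying which. Of the members whose context is known, 21 were CpG and 1 was not. The 20% level leaves out low positions of either kind, and how many of each it removed was not counted. Stretches were placed by matching reference sequence to the listed positions, at 98% or more of at least 15 positions for promoters; no coordinate was converted between builds. Means, differences and tiles of 5000 bp were computed in Python 3.11.15 with NumPy 2.4.6, pandas 2.3.3 and SciPy 1.17.1, and drawn with Matplotlib 3.10.9. Tile calls were tested on simulated data. Windows are always named; single cytosines are named only with values in at least 10 libraries, and the others named here were chosen after their values were seen, as were the bins' and stretches' examples. The 3 imprinted windows most alike to each member are named. There is 1 library per group, so no comparison between 2 libraries was tested; late against early passage at H19 was tested over the 3 stem cell types. Alternatives varied the level, cytosines used, mean or median, and minimum number; averaging adjacent positions was chosen after seeing the data.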

Additional observations from a re-analysis of the deposited data

Results flagged for a closer look

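The Meg3 promoter differed between BM and WT in opposite directions in the embryo and in the adult brain. It was 25.1 points higher in the BM embryo than in the WT embryo and -5.73 points in the BM adult brain against the WT adult brain. The embryo difference was 18.3 points over shared cytosines and 9.11 points with the median, both under the 25 points of a call, and the adult difference is not a call. The difference between these 2 contrasts was not tested, since each rests on 1 library a group. The embryo pair belongs to the first library set and the adult pair to the second, and the part of the sets was not tested.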

How the results depend on the processing

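Of 297 values of a window under another setting, 273 stayed on the same side of 25 points, 22 fell under it and 2 passed it. The sign turned in 7 of them, over 5 differences that were not called and 0 that were: BP against WT embryos at Rasgrf1 (1.19, -0.208 over all listed cytosines, -0.411 with the median), BM against BP at the Meg3 promoter (-15.7, 3.90 over all listed), the BM adult against the E19.5 brain at Rasgrf1 (3.25, -22.2 over shared cytosines, -7.28 with the median), the BM E19.5 brain against the BM embryo at H19 (6.79, -1.78 with the median) and the WT adult brain against the WT embryo at the Meg3 promoter (-9.99, 8.70 over shared cytosines). Taking all listed cytosines, which adds those under 20% in every library, ended all 20 calls of the 15 comparisons and left 0 windows called in diploid passage (H19 -16.9, Meg3 promoter -17.9, Rasgrf1 -15.0), ahESC passage (Meg3 promoter -12.6, Rasgrf1 -9.27), early phESCs against diploid ESCs (-14.3, -18.2, -10.4) and against ahESCs (Meg3 promoter -15.4, Rasgrf1 -6.50), BM against WT embryos (-12.6, 9.54, -6.73), BP against WT (Meg3 promoter 5.64), BM against BP (H19 -20.97, Rasgrf1 -6.52) the BM adult against the E19.5 brain (Meg3 promoter -13.7), the BM embryo against early phESCs (Meg3 promoter 22.4) and the BP embryo against early ahESCs (H19 15.7, Meg3 promoter 3.08). For BM against WT embryos the Meg3 promoter gave 18.3 points over shared cytosines and 9.11 with the median. With the median, H19 was called in early ahESCs against diploid ESCs (-27.0, 1 window) and in BP against WT embryos (29.7, 2 windows). With at least 10 cytosines in each library 0 windows were called in BP against WT embryos and 1 in BP embryos against early ahESCs, since the BP embryo has 7 at the Meg3 promoter. No paired analysis was possible because each group has 1 library, apart from the early and late pairs of the 3 stem cell types tested at H19. Leaving out a replicate was likewise not run. Read depth is unknown, and single cytosines may rest on few reads.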

Other observations

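Adjacent listed positions, whose sequence context is known for 22 of the 93 members only (21 of them CpG), often read differently in the same library. Over all windows the median absolute gap ran from 2.21 points in early phESCs to 14.7 points in the WT adult brain, and the largest single gaps were 57.9 points in the BM adult brain and 55.4 points in the WT adult brain, both at Rasgrf1. In the H19 window the median gap was 29.7 points in the WT adult brain (8 pairs) and 14.2 points in the BM adult brain (6 pairs), against 1.54 to 8.02 points in the other 10 libraries. At Rasgrf1 it was again widest in the WT adult brain (22.3 points, 4 pairs). At the Meg3 promoter it was widest in the BM embryo (21.7 points, 10 pairs) and the WT embryo (18.9 points, 5 pairs). The adult brains had 12.5 points (WT) and 3.11 points (BM) there. The BM and WT embryos differed by 25.1 points in that window, and the part of such gaps was not tested.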
